A study of Mus musculus with 24 samples.

Results

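In mouse embryos, otocyst epithelium, from which the inner ear forms, was exposed for 12 hours to a secreted trap for the ligands of the receptor FGFR2b and compared with the epithelium of littermates that lacked the trap. The libraries were those whose labels give a doxycycline start at E9.75 and a duration of 12 hours, and whose library number heads a column of the count table. That gave 6 libraries of the 8 samples with this label, of 24 samples in the series. Control embryos (con, 3 pools) had the genotype Rosa26rtTA/+, that is, the doxycycline-dependent transactivator alone. Experimental embryos (R2b, 3 pools) had the genotype Rosa26rtTA/+;Tg(tetO-s(dn)Fgfr2b)/+, which adds a tetO transgene for the soluble dominant-negative receptor. Pregnant females had 1 injection of doxycycline at 1.5 mg/kg and then chow with 200 mg/kg, so con embryos carried the transactivator and had the drug too. Each library is a pool of the otocyst epithelia of 1 genotype from 1 pregnant female, and each female gave 1 con and 1 R2b pool. Rosa26 is a broadly active locus and the trap is secreted, so the trap was not limited to the otic epithelium. A 24-hour exposure from E9.25 with the same genotypes and doses (4 con and 4 R2b pools) ended at the same stage, E10.25, and is set beside the 12-hour effects where they differ.

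FGFR2b is the epithelial splice form of FGF receptor 2 and binds FGF3, FGF7, FGF10 and related ligands. A bound receptor signals mainly through RAS, ERK and the ETS factors of the PEA3 group, and it switches on its own inhibitors of the Sprouty, Spred and Dusp families, whose transcripts serve as readouts of the pathway. In the inner ear, FGF3 and FGF10 are known for roles in the induction of the otic placode, the patterning of the otocyst and the formation of its ducts and its ganglion.

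Library totals were 18.7 to 25.8 M counts, and mitochondrial transcripts took 4.00% to 6.69% of them. Of 14882 genes tested in edgeR, 2973 (20.0%) had a Benjamini-Hochberg adjusted p (FDR) under 0.05 and are named as called: 1518 were higher (10.20%) and 1455 lower (9.78%) in R2b. Only 501 of the called genes differed by more than 2-fold, 371 of them higher. With the litter as a block in the model, which uses that each litter gave both pools, 1775 genes were called. Leaving out litter 1, its con and R2b pools together, left 434 calls. The R2b pool of litter 2 stood apart from the other R2b pools, with a chi-square per degree of freedom of 35 and 37 against them where these differed from each other by 11.9. Without that pool 4583 genes were called. Sex-linked transcripts differed between the R2b pools as well: Xist had 25896, 7231 and 17177 counts and the Y-linked Ddx3y 255, 758 and 290 counts in litters 1, 2 and 3, against 16419, 7228 and 10950 and 681, 725 and 514 in con. The part of the pools' makeup by sex in the results was not tested. Levels below are counts per 1e6 counts (CPM), scaled by TMM factors, and lists of values follow litters 1, 2 and 3. All fold changes are log2 values of R2b minus con. Counts of called genes in a list are to be read against the shares of all genes called higher and lower given above. In bulk RNA, fewer cells of a type and less RNA per cell cannot be told apart.

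The fold change rose with the GC content of the transcript. Over 11634 genes with a mean log2 CPM above 2, Spearman's rho across genes was 0.39, where it was 0.09 in the 24-hour exposure. Over 5 equal classes of genes, from the lowest GC content to the highest, the median fold change was -0.18, -0.11, -0.02, 0.07 and 0.18. In the lowest class 78 genes were called higher and 467 lower, and in the highest class 460 higher and 59 lower. Levels in the R2b pools of litters 1 and 3 rose with GC content relative to the mean of the 6 libraries, and those in the con pools and the R2b pool of litter 2 fell with it. An offset for GC content, fitted per library and added after the data were seen, brought rho to -0.00. It gave 3382 calls, 1580 higher and 1802 lower, and 2472 of the 2973 genes were among them in the same direction. The part of GC content in any one gene's change was not tested. Values with the offset are given for some genes and lists only, so a gene shown without one may lose its call with it.

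**Figure D1:**
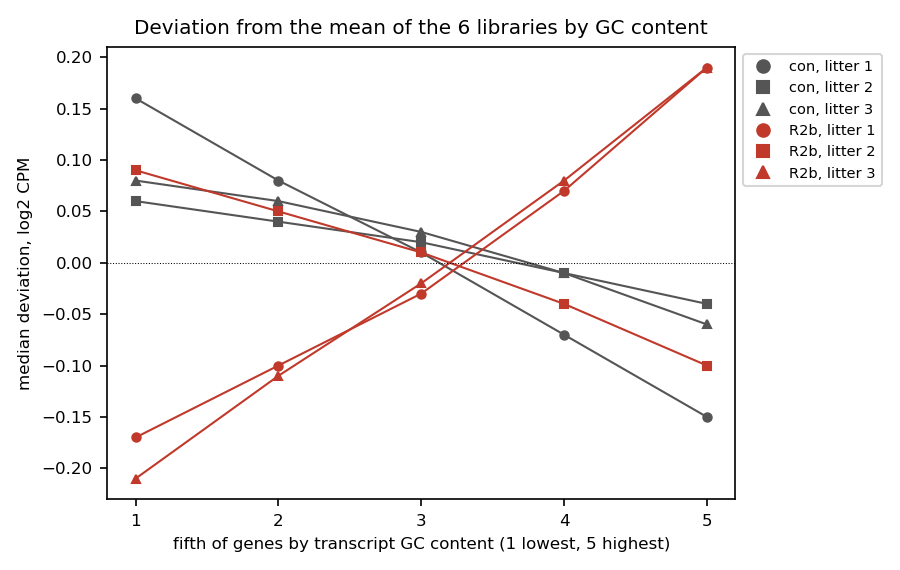
Median deviation of each library's log2 CPM from the mean of the 6 libraries (vertical axis) for genes in 5 equal classes of transcript GC content (horizontal axis), with con in grey, R2b in red and a marker shape per litter. The R2b pools of litters 1 and 3 run from -0.17 and -0.21 up to 0.19, and the R2b pool of litter 2 runs the other way, from 0.09 to -0.10.

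The otic identity of the tissue was checked on its markers. The 11 otic epithelial markers in the table, among them Oc90, Otol1, Pax2 and Epcam, summed to 3210 to 3571 CPM in con and 3599 to 4373 CPM in R2b, groups that did not overlap, and none was at 0 in any library. Of these 11, 6 were called higher and Epcam lower. None was called with litter 1 left out, 2 were called higher with its R2b pool left out and 3 with litter 3 left out. Markers of other tissues were present at lower levels. The 13 mesenchymal markers summed to 186, 131 and 426 CPM in con and 261, 451 and 276 CPM in R2b, the 13 endothelial markers to 18.3 to 69.2 and 24 to 49.5 CPM, and the 5 hindbrain markers to 10.8 to 24.1 and 20.2 to 27.9 CPM. The 11 blood markers ranged most, from 21.5 to 790 CPM in con and from 92.9 to 120 CPM in R2b. For these 4 lists the groups overlapped, and the markers at 0 were Hba-a2, Hbb-bs and Ptprc in the con pool of litter 2, Hba-a2 in the R2b pool of litter 1 and Sox17 in the con pool of litter 1. The 8 markers of neural crest and glia were at 657, 675 and 674 CPM in con and 840, 810 and 783 CPM in R2b, so these groups did not overlap, and of 7 tested 1 was called higher and 1 lower. Among markers of mesenchyme and endothelium 1 gene each was called, Lum (1.15) and Tek (-1.41), and 0 of 9 blood markers were called. These counts turned on single litters. Of 12 mesenchymal markers, 5 were called higher with the con pool of litter 3 left out (median 1.02) and 7 with all of litter 3 left out (median 1.20). Of 9 blood markers, 7 were called lower with the con pool of litter 2 left out (median -2.06) and 7 with that litter left out (median -2.07), where 4 of 12 endothelial markers were lower too. The part of other cells in the results below was not tested.

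The labels were checked on the transgene, whose reads fall in Fgfr2 and in the immunoglobulin gene Ighg1. Ighg1 had 19 to 36 counts in the con pools and 34470, 76096 and 19414 counts in the R2b pools, with the lowest level in litter 3, and every R2b pool lay above every con pool. The exact permutation p of log2 CPM, computed for both directions, was 0.1, the smallest that 3 against 3 can give. Both genes were called higher and are within the counts of called genes given above, among them the 2973 calls and the 1518 higher. Neither is named as a response.

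The FGF readout list had the lowest median of the 25 pathway lists. Of 13 readout and feedback genes tested, 12 were called lower and 0 higher, with a median fold change of -1.39, against 9.78% called lower over all genes and a median of 0.01. Etv4, an ETS factor of the PEA3 group (ENSMUSG00000017724, chromosome 11, 101769742 to 101785371, minus strand, GRCm38), was at 48.2, 39.2 and 45.2 CPM in con and 3.44, 4.78 and 14.9 CPM in R2b, a fold change of -2.54 (SE 0.40, FDR 0.00208). Dusp6, an ERK phosphatase, was at 83.9, 81.3 and 75.2 CPM in con and 18.9, 20.2 and 31.3 CPM in R2b (-1.78, SE 0.17, FDR 0.000347). For both genes every R2b pool lay below every con pool, and the R2b pool of litter 3 was the highest of the R2b pools. Spry1 and Spry2, which inhibit receptor tyrosine kinase signalling, fell by 1.39 (SE 0.16) and 1.40 (SE 0.16), both at an FDR of 0.000568. Flrt3, a membrane protein that promotes FGF signalling, was the only member not called, at 0.36 (FDR 0.0994). Without litter 1 the list had 8 calls, all lower.

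The response of the list differed between R2b pools. Against the con mean, the median of the 13 genes was -1.76, -1.39 and -1.09 in the R2b pools of litters 1, 2 and 3. The cell cycle lists described below kept this order, at -1.24, -0.99 and -0.79 for G2/M and -0.87, -0.60 and -0.52 for S phase. The ribosome biogenesis list kept it too, at -0.59, -0.55 and -0.33, and so did the cholesterol list, at -0.53, -0.41 and -0.32. The Notch, basement membrane and neuroblast lists did not, and the transgene reads in Ighg1 were highest in litter 2.

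**Figure D2:**
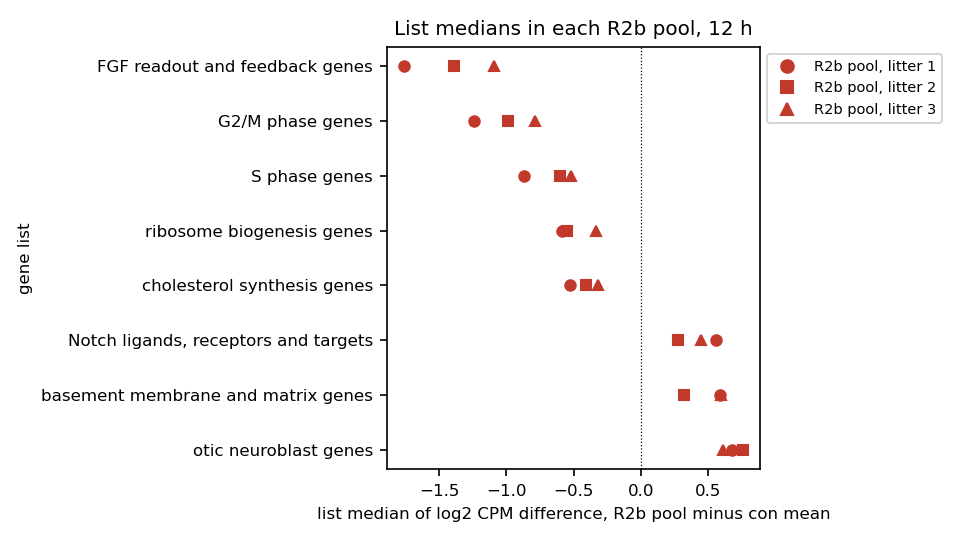
Median log2 CPM difference of each R2b pool from the con mean (horizontal axis) for 8 gene lists (vertical axis), with a marker shape per litter. The FGF readout, G2/M, S phase, ribosome biogenesis and cholesterol medians are lowest in litter 1 and highest in litter 3. The basement membrane list is lowest in litter 2 at 0.32 against 0.59 and 0.60.

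Among the immediate early and MYC genes, 4 of 19 were called higher and 1 lower (median 0.23). The 1 that fell was Mycn, which encodes a MYC family factor that drives growth and division of progenitor cells (ENSMUSG00000037169, chromosome 12, 12936093 to 12941914, minus strand). It was at 103, 115 and 108 CPM in con and 43.6, 38.6 and 59.8 CPM in R2b, groups that did not overlap, with a fold change of -1.20 (SE 0.15, FDR 0.000671). It was called under every alternative, and at 24 hours its fold change was -0.95 (FDR 0.00152). Fosl2, an AP-1 subunit, rose by 1.02 (SE 0.19, FDR 0.00432), though not without litter 1 (FDR 0.0811). Fos and Egr1, classic transcripts of ERK activation, had low levels, at 0.391 to 0.656 CPM and 0.908 to 2.38 CPM, and neither was called. With the litter as a block 1 gene of the list was called higher, and without litter 1 none, while Mycn stayed called in both. With the GC offset 2 were called higher and 1 lower (median 0.13).

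Of 11 ligands and receptors of the pathway tested, 3 were called higher and 0 lower. Fgf8, which encodes a ligand of other FGF receptors, was at 0.403, 1.47 and 1.58 CPM in con and 5.44, 4.66 and 3.61 CPM in R2b, so the groups did not overlap (1.99, SE 0.40, FDR 0.00685), and its FDR was 0.0668 without litter 1. Fgfrl1, a receptor without a kinase domain, rose by 0.46 (SE 0.10, FDR 0.00846), and its FDR was 0.187 without litter 1 and 0.0505 without the R2b pool of that litter. Fgfr4 (0.78, FDR 0.0268) was not called under 15 of 25 alternatives, the litter block (FDR 0.0684) and the GC offset (FDR 0.0573) among them. Fgf3, Fgf9, Fgf10, Fgf16, Fgf20, Fgfr1, Fgfr3 and Fgfbp3 were tested and not called.

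Beyond the feedback genes, transcripts of the cell cycle fell together. All 24 G2/M phase genes tested were called lower, against 9.78% of all genes, with fold changes between -1.17 and -0.75 and a median of -0.97. In all 24 every R2b pool lay below every con pool, against 19.0% of all genes separated in that direction and 19.8% in the other. Of 27 S phase genes 25 were called lower, the same number separated, and the median was -0.66. Mcm2 and Cdt1, which license replication origins, were the pair that did not pass. With the GC offset the counts were 24 of 24 and 25 of 27, and the medians -0.90 and -0.65. They were 24 and 25 with the R2b pool of litter 2 left out, and 19 and 9 with litter 1 left out.

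Cenpe, a kinesin of the kinetochore (ENSMUSG00000045328, chromosome 3, 135212537 to 135273611, plus strand), was at 215, 233 and 205 CPM in con and 82.1, 103 and 105 CPM in R2b (-1.17, SE 0.11, FDR 0.000335). Bub1, a kinase of the spindle checkpoint (ENSMUSG00000027379, chromosome 2, 127801122 to 127831865, minus strand), was at 165, 159 and 158 CPM in con and 66.9, 79.7 and 81.3 CPM in R2b (-1.08, SE 0.10, FDR 0.000335). Its paralogue Bub1b fell by 1.11 (SE 0.11, FDR 0.000399). Mki67, which encodes the proliferation antigen Ki-67, was at 860, 943 and 883 CPM in con and 413, 427 and 520 CPM in R2b (-0.98, SE 0.11, FDR 0.000521). In each of these genes the R2b pools lay well below the con pools, and each was called under every alternative. Among S phase genes, the ribonucleotide reductase subunits Rrm1 (-0.78, SE 0.11) and Rrm2 (-0.84, SE 0.12), the clamp loader subunit Rfc4 (-0.91, SE 0.13), the replication factor Cdc45 (-0.84, SE 0.12) and the primase subunit Prim1 (-0.80, SE 0.12) fell, with FDRs of 0.00109 to 0.00164. Without litter 1, the FDRs of Rfc4 and Prim1 were 0.0512 and 0.0533. Of 8 D cyclins and CDK inhibitors, Ccnd1, a cyclin of G1 that responds to growth factors, fell by 0.57 (SE 0.10, FDR 0.00423), and Cdkn1a, the inhibitor p21, rose by 0.89 (SE 0.11, FDR 0.000853). Ccnd1 had an FDR of 0.0964 without litter 1.

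The promoters of the G2/M genes are shown because these genes moved together and many are known to carry the cell cycle genes homology region (CHR), a short element bound by the DREAM and MuvB complexes. RefSeq windows on GRCm38.p6, from 250 bases before to 50 bases after the annotated start, matched 19 of the 24 genes. The letters TTTGAA, searched on both strands after the values were seen, were in 14 of the 19 windows (73.7%), in 2 of 21 windows of S phase genes (9.52%) and in 11.4% of the 11004 windows of tested genes. In the 250 bases before the start alone they were in 7 of the 19 (36.8%) and in 10.1% of all, so the share depended on the 50 bases after the start. In the full windows they were in 18.9% of windows of genes called lower and 9.15% of those called higher. The lines below give the last 100 bases before the start, 5′ to 3′ on the strand of the gene, with TTTGAA or its reverse complement in capitals. Overlaps with other motifs were not removed, and a match is a description of letters, not a site.
Cdk1 (chr10:69352913-69353012, minus strand): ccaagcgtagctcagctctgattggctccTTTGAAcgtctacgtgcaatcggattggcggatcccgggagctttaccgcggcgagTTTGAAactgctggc
Cdc20 (chr4:118437344-118437443, minus strand): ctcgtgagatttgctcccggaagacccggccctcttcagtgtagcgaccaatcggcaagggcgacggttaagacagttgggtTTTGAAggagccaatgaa
Kif11 (chr19:37376282-37376381, plus strand): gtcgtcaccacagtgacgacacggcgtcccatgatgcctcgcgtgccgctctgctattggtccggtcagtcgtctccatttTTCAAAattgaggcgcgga
Top2a (chr11:99024190-99024289, minus strand): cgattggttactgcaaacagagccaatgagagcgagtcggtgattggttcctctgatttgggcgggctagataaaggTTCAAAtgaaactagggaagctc
These 4 genes encode the mitotic kinase, an activator of the anaphase-promoting complex, a spindle motor and the topoisomerase of mitotic chromosomes. Cdk1 was at 154, 141 and 145 CPM in con and 60.5, 74.3 and 83.7 CPM in R2b (-1.01, SE 0.12, FDR 0.000609). Cdc20 fell by 0.75 (SE 0.14, FDR 0.00524, and 0.0801 without litter 1), Kif11 by 1.04 (SE 0.14, FDR 0.000886) and Top2a by 1.07 (SE 0.15, FDR 0.00116).

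Other letters were searched in the same windows. The E2F motif TTTGGCGC, also chosen after the values were seen, was in 5 of 21 windows of S phase genes (23.8%) and in 0.936% of all windows, and in the 250 bases before the start alone in 3 of 21 (14.3%) and 0.782%. It is shown once, in the window of Mcm6, a subunit of the replicative helicase that fell by 0.43 (SE 0.10, FDR 0.0102), though not without litter 1 (FDR 0.108), without litter 3 or without the R2b pool of litter 1.
Mcm6 (chr1:128359706-128359805, minus strand): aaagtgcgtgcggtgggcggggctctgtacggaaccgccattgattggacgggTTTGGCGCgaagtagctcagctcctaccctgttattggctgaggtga
The ETS core CCGGAAG was in 23.8% of 1141 windows of genes called lower, 7.77% of 1159 windows of genes called higher and 17.4% of all. None of the 10 windows matched for the FGF readout list held it. The CRE core TGACGTCA was in 3.59%, 2.07% and 3.28%, and the E-box CACGTG in 12.4%, 8.11% and 10.1%, in the same order. Motif shares move with base composition, and its part in these shares was not tested.

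Transcripts for cell growth fell as well. Of 22 ribosome biogenesis genes 15 were called lower and 0 higher (median -0.51), against 9.78% called lower over all genes. Every member had a fold change below 0, and with the GC offset 21 were called lower. Gnl3, which encodes the nucleolar GTPase nucleostemin, was at 87.7, 85.1 and 79.3 CPM in con and 35.9, 48.4 and 46.6 CPM in R2b (-0.95, SE 0.12, FDR 0.000902). Nop58, a core protein of box C/D small nucleolar RNPs, was at 254, 246 and 227 CPM in con and 116, 159 and 126 CPM in R2b (-0.86, SE 0.12, FDR 0.0012). Both groups were separated in each gene. Wdr43, a factor of the small subunit processome, fell by 0.67 (SE 0.11, FDR 0.002). Of 21 cholesterol synthesis genes 13 were called lower and 0 higher (median -0.38), against the same 9.78%. Sqle, squalene epoxidase, was at 144, 127 and 128 CPM in con and 81.9, 91.3 and 92.6 CPM in R2b (-0.58, SE 0.10, FDR 0.00269). The lanosterol demethylase Cyp51 fell by 0.58 (SE 0.10, FDR 0.00355) and Insig1, a sterol sensor partner, by 0.66 (SE 0.12, FDR 0.00438). Without litter 1 the ribosome list had 5 calls and the cholesterol list 0, with FDRs of 0.0889, 0.0837 and 0.11 for Sqle, Cyp51 and Insig1. With the litter block the counts were 11 and 8.

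Regional transcription factors of the otocyst moved in both directions. Of 35 tested, 13 were called higher and 3 lower (median 0.10), and with the GC offset 12 were higher and 9 lower. Without the offset the share called higher was above that of all genes, and the share called lower was below the 9.78% of all genes. Six2, a homeobox factor (ENSMUSG00000024134, chromosome 17, 85684277 to 85688274, minus strand), was at 195, 169 and 194 CPM in con and 69.2, 76.6 and 78.4 CPM in R2b (-1.32, SE 0.10, FDR 8.06e-05). Otx2 and Otx1, factors of the ventral otocyst, were the other members called lower. Otx1 was at 129, 131 and 99 CPM in con and 59.9, 59.1 and 81.3 CPM in R2b (-0.84, SE 0.15, FDR 0.00343), and Otx2 changed by -0.97 (SE 0.19, FDR 0.00566, and 0.0763 with all libraries in 1 fit). They are named outside the naming rule, after their values were seen, and without litter 1 the FDR was 0.0872 for Otx1 and 0.11 for Otx2. The Iroquois factors Irx3 and Irx5 rose by 0.83 (SE 0.09, FDR 0.000557) and 1.04 (SE 0.12, FDR 0.00056). Irx5 was at 59.3, 73.3 and 73.2 CPM in con and 156, 124 and 143 CPM in R2b. Msx2, a target of BMP signalling, rose by 0.83 (SE 0.11, FDR 0.000891), and Pax2, an early otic factor, by 0.78 (SE 0.12, FDR 0.00153, and 0.0562 without litter 1). Without litter 1, 4 members were called higher and 1 lower.

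The genes with the largest changes that met the naming rule included factors outside these lists. The rule took protein-coding genes with a mean log2 CPM of at least 3, separated groups and a call with each litter left out in turn, which 357 genes met. Lhx1, a LIM homeobox factor (ENSMUSG00000018698, chromosome 11, 84518284 to 84525535, minus strand), was at 4.74, 5.68 and 3.64 CPM in con and 17.5, 21.6 and 14.4 CPM in R2b (1.93, SE 0.21, FDR 0.00051). Pou3f3, a POU domain factor (ENSMUSG00000045515, chromosome 1, 42695768 to 42703176, plus strand), was at 40.8, 28.8 and 40.3 CPM in con and 9.64, 13.6 and 13.7 CPM in R2b (-1.58, SE 0.18, FDR 0.000557). Both factors were separated between the groups by more than 2-fold. Morc4, which encodes a CW-type zinc finger ATPase, fell by 1.70 (SE 0.19, FDR 0.00051), and Gipc2, which encodes a PDZ domain protein, by 1.39 (SE 0.15, FDR 0.000468).

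Man1a, an alpha-mannosidase of the Golgi, had the largest rise of these genes, at 12.8, 7.15 and 12.4 CPM in con and 82.1, 166 and 73.7 CPM in R2b (3.31, SE 0.31, FDR 0.000335). Its R2b levels followed the litter order of the transgene reads in Ighg1, at 1464, 2979 and 1001 CPM. Every R2b pool carries the transgene, and the part of the transgene itself in the rise of Man1a was not tested. The metalloprotease gene Adamts15 was at 26.4, 28 and 25.8 CPM in con and 82.2, 73.2 and 87 CPM in R2b (1.60, SE 0.11, FDR 6.76e-05). Actn3, an alpha-actinin, rose by 1.71 (SE 0.13, FDR 8.06e-05) and Clstn2, a calsyntenin of the cell surface, by 1.50 (SE 0.15, FDR 0.000427). Nos1, the neuronal nitric oxide synthase, rose by 1.48 (SE 0.19), the amino acid transporter gene Slc36a2 by 1.48 (SE 0.14) and the calcium-binding protein gene Hrc by 1.43 (SE 0.21), with FDRs of 0.000813, 0.000335 and 0.00149. Etv4, Etv5 (-2.36), Spred3 (-2.13), Dusp6, Spry1 and Spry2 were also among the 10 largest falls.

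**Figure D3:**
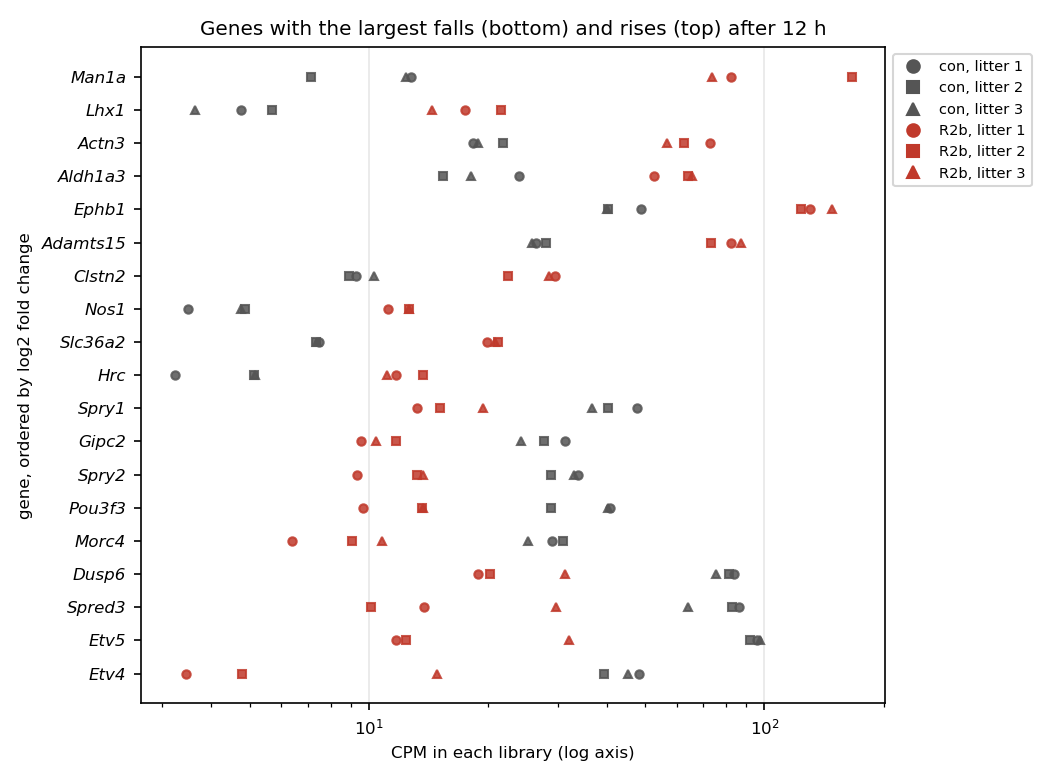
CPM in each of the 6 libraries (horizontal log axis) for genes among the 10 largest rises and the 10 largest falls under the naming rule (vertical axis), with con in grey, R2b in red and a marker shape per litter. In every gene drawn the 3 R2b points lie on one side of the 3 con points, as the naming rule required. For Etv4, Etv5 and Spred3 the R2b pool of litter 3 lies nearest to con.

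Neuroblast genes were higher at 12 hours. Neuroblasts leave the ventral otocyst to form the ganglion of hearing and balance, and NEUROG1 and NEUROD1 drive this fate. The call was higher for 10 of the 17 genes tested and lower for 0, and the median was 0.67, against 10.20% called higher over all genes. Eya2, a phosphatase and transcriptional cofactor (ENSMUSG00000017897, chromosome 2, 165595032 to 165771727, plus strand), was at 29, 26.1 and 35.2 CPM in con and 61.4, 52.8 and 65.4 CPM in R2b (0.99, SE 0.13, FDR 0.00106). Tubb3, a neuronal tubulin, was at 61.8, 57.4 and 82.7 CPM in con and 155, 130 and 123 CPM in R2b (1.02, SE 0.14, FDR 0.00125). Neurog1 was at 27.8, 26.6 and 26.5 CPM in con and 49.2, 49.1 and 41.1 CPM in R2b (0.78, SE 0.11, FDR 0.00144). In all 3 genes the groups did not overlap. The zinc finger factor Insm1 rose by 0.80 (SE 0.13, FDR 0.00254) and Dcx, doublecortin of migrating neurons, by 0.63 (SE 0.11, FDR 0.00326). Isl1, a factor of later neuroblasts, was at -0.19 (FDR 0.25). The con pool of litter 3, which also had the most mesenchymal marker RNA of the con pools, had a list median 0.43 above the mean of the other con pools. Calls depended on the fit: 3 genes were called without litter 1, where Insm1 and Dcx had FDRs of 0.0756 and 0.0562, and 2 with all libraries of the series in 1 fit.

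Notch signalling sets the choice between neuroblast and epithelial fates. Of 15 Notch genes 7 were called higher and 1 lower (median 0.48), and with the GC offset 6 and 1 (median 0.34). The share called higher was above that of all genes, and the share called lower was below the 9.78% of all genes. Heyl, a target of Notch (ENSMUSG00000032744, chromosome 4, 123233556 to 123249875, plus strand), was at 46.7, 41.5 and 57.5 CPM in con and 129, 157 and 103 CPM in R2b (1.42, SE 0.16, FDR 0.000557), and was called under every alternative. Hey2, also a target, rose by 0.56 (SE 0.13, FDR 0.0127), the glycosyltransferase gene Lfng by 0.83 (SE 0.18, FDR 0.00852), and the receptors Notch1 and Notch2 by 0.60 (SE 0.14, FDR 0.0118) and 0.44 (SE 0.10, FDR 0.0137). Hes1, another target, was the 1 member called lower, at -0.40 (FDR 0.0459). It was not called under 15 of 25 alternatives, the litter block among them (FDR 0.114), and is named after its values were seen, and Hey1 and Nrarp were at -0.02 and 0.03. Without litter 1 only Heyl was called, with FDRs of 0.156, 0.208, 0.0966 and 0.238 for Lfng, Notch1, Hey2 and Notch2. Without the con pool of that litter alone these 4 had FDRs of 0.05, 0.0655, 0.0617 and 0.0708, and without its R2b pool Notch1 and Notch2 had 0.0617 and 0.0734. Notch2 had an FDR of 0.0571 without the con pool of litter 2, and Lfng 0.151 with all libraries in 1 fit.

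Of 17 retinoic acid genes 7 were called higher and 0 lower (median 0.32), and 10 were not called. With the GC offset 5 were called higher and 0 lower (median 0.24). In the main fit the share called higher was above that of all genes. Against the con mean, 1, 1 and 3 of the 17 lay lower in the R2b pools of litters 1, 2 and 3. Aldh1a3, which makes retinoic acid (ENSMUSG00000015134, chromosome 7, 66390890 to 66427517, minus strand), was at 24, 15.4 and 18.1 CPM in con and 52.7, 64.2 and 65.5 CPM in R2b (1.66, SE 0.16, FDR 0.000347). Rdh10, which makes its precursor retinaldehyde, was at 142, 99 and 105 CPM in con and 188, 202 and 219 CPM in R2b (0.81, SE 0.13, FDR 0.00245). The receptor gene Rxrg rose by 1.0 (SE 0.11, FDR 0.000557). These 3 genes were called under every alternative. Dhrs3, Cyp26b1, Rarg and Stra6 made up the rest of the 7, were not called under 15 to 17 of 25 alternatives and are named after their values were seen. With the litter block their FDRs were 0.0771, 0.105, 0.0844 and 0.059. With that block, or without litter 1, 3 genes of the list were called.

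The counts of the signalling, adhesion and guidance lists that follow are to be read against 10.20% of all genes called higher and 9.78% lower. Of 31 Wnt genes 10 were called higher and 1 lower (median 0.20). The secreted glycoprotein gene Dkk3 was at 17.5, 13.5 and 16.2 CPM in con and 27.1, 27.3 and 29 CPM in R2b (0.82, SE 0.14, FDR 0.00264). Sp5, a target of canonical Wnt signalling, rose by 0.88 (SE 0.15, FDR 0.00269), and the ligand genes Wnt11, Wnt2b and Wnt5a rose by 1.65 (SE 0.30), 0.80 (SE 0.15) and 0.56 (SE 0.13), with FDRs of 0.00432, 0.00468 and 0.015. Axin2 and Lef1, which are also direct targets, were at 0.27 (FDR 0.0613) and 0.16 (FDR 0.364). With all libraries in 1 fit Wnt2b and Wnt5a had FDRs of 0.101 and 0.0552. Without litter 1 the list had 2 calls, and Sp5, Wnt11 and Wnt5a had FDRs of 0.0714, 0.0588 and 0.112. Wnt5a had an FDR of 0.0531 without the con pool of litter 2.

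Of 22 BMP genes 4 were called higher and 1 lower (median 0.09). Bmper, a secreted modulator of BMP, was at 56.2, 45.8 and 54.7 CPM in con and 112, 112 and 121 CPM in R2b (1.14, SE 0.11, FDR 0.000335) and was called under every alternative. Fst, follistatin, rose by 0.67 (SE 0.16, FDR 0.0157), and its FDR was 0.0739 without litter 2 and 0.0599 without litter 3, 0.0696 without the con pool of litter 2, and 0.23 with all libraries in 1 fit. Bmp6 (1.15, FDR 0.0204), Smad6 (0.47, FDR 0.0374) and Bmp2 (-1.25, FDR 0.0401) were not called under 10, 16 and 18 of 25 alternatives. With the litter block their FDRs were 0.0531, 0.0572 and 0.102, and 2 genes of the list were called, and with the GC offset Smad6 had 0.219.

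Of 11 hedgehog genes tested 4 were called higher and 0 lower (median 0.33), and with the GC offset 3 and 0 (median 0.16). Gli1, a transcription factor of the pathway and its target, was at 69.6, 69.7 and 61.8 CPM in con and 119, 104 and 116 CPM in R2b (0.76, SE 0.10, FDR 0.000931). Ptch1, the receptor of hedgehog ligands and a target too, was at 93.1, 105 and 108 CPM in con and 157, 150 and 140 CPM in R2b (0.55, SE 0.10, FDR 0.00342). In both genes the groups did not overlap. The coreceptor gene Cdon rose by 0.41 (SE 0.09, FDR 0.0104). Without litter 1, Gli1 was called and Ptch1 and Cdon were not (FDRs of 0.105 and 0.178), and Cdon had an FDR of 0.0792 without litter 3 and 0.0516 without the con pool of litter 1.

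Of 22 genes for basement membrane and matrix 14 were called higher and 1 lower (median 0.54), and with the GC offset 12 and 1. The fibrillar collagen gene Col11a1 was at 397, 408 and 408 CPM in con and 571, 610 and 603 CPM in R2b (0.56, SE 0.09, FDR 0.00192), and Col9a2 rose by 0.72 (SE 0.11, FDR 0.00146). Fibronectin, Fn1, went the other way, at 1058, 1050 and 1294 CPM in con and 774, 588 and 921 CPM in R2b (-0.58, SE 0.15, FDR 0.0238), and is named outside the rule, after its values were seen. Without litter 1 the list had 1 call, and the FDRs of Col9a2, Col11a1 and Fn1 were 0.0515, 0.0525 and 0.137. Fn1 was not called either without the con or the R2b pool of litter 1 or the con pool of litter 3.

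Of 22 cadherins, claudins and other junction genes 8 were called higher and 2 lower (median 0.28). The counts were 5 and 1 with the litter block and 2 and 0 without litter 1. The claudin gene Cldn3 was at 71.6, 72.6 and 81.8 CPM in con and 156, 121 and 173 CPM in R2b (0.99, SE 0.13, FDR 0.000886), and the cadherin gene Cdh4 rose by 0.74 (SE 0.12, FDR 0.00208). Cldn10, another claudin, was at 3.58, 3.93 and 3.06 CPM in con and 0.212, 0.744 and 1.44 CPM in R2b (-2.16, SE 0.48, FDR 0.0103). Cldn10 is named after its values were seen, and its FDR was 0.0764 without litter 1. The keratin gene Krt19 rose by 0.76 (SE 0.13, FDR 0.00341, and 0.0889 without litter 1). Epcam, an epithelial adhesion molecule, was at -0.31 (FDR 0.0379) and was not called under 12 of 25 alternatives, the litter block among them (FDR 0.0808). It is named after its values were seen.

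Among the guidance genes named here, only Ephb1 changed by more than 2-fold. Of 17 ephrins and Eph receptors 4 were called higher and 1 lower. Ephb1, a receptor for B-type ephrins (ENSMUSG00000032537, chromosome 9, 101922128 to 102354693, minus strand), was at 48.7, 40.3 and 39.9 CPM in con and 130, 124 and 148 CPM in R2b (1.64, SE 0.12, FDR 6.81e-05). Its ligand Efnb3 rose by 0.68 (SE 0.13, FDR 0.0059) and Efna3 by 0.92 (SE 0.20, FDR 0.0107), the latter at an FDR of 0.131 without litter 1. Of 27 semaphorins, slits, netrins and their receptors 6 were called higher and 1 lower. Slit3 was at 81.3, 94.2 and 99.7 CPM in con and 164, 134 and 154 CPM in R2b (0.72, SE 0.11, FDR 0.00191). Plxna4, a semaphorin receptor, and Robo2, a slit receptor, rose by 0.66 (SE 0.11, FDR 0.00323) and 0.83 (SE 0.22, FDR 0.0205). Without litter 1 no gene of this second list was called, with FDRs of 0.0639, 0.0751 and 0.162 for these 3, Plxna4 had 0.0828 with all libraries in 1 fit, and Robo2 was not called under 8 of 25 alternatives.

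**Figure D4:**
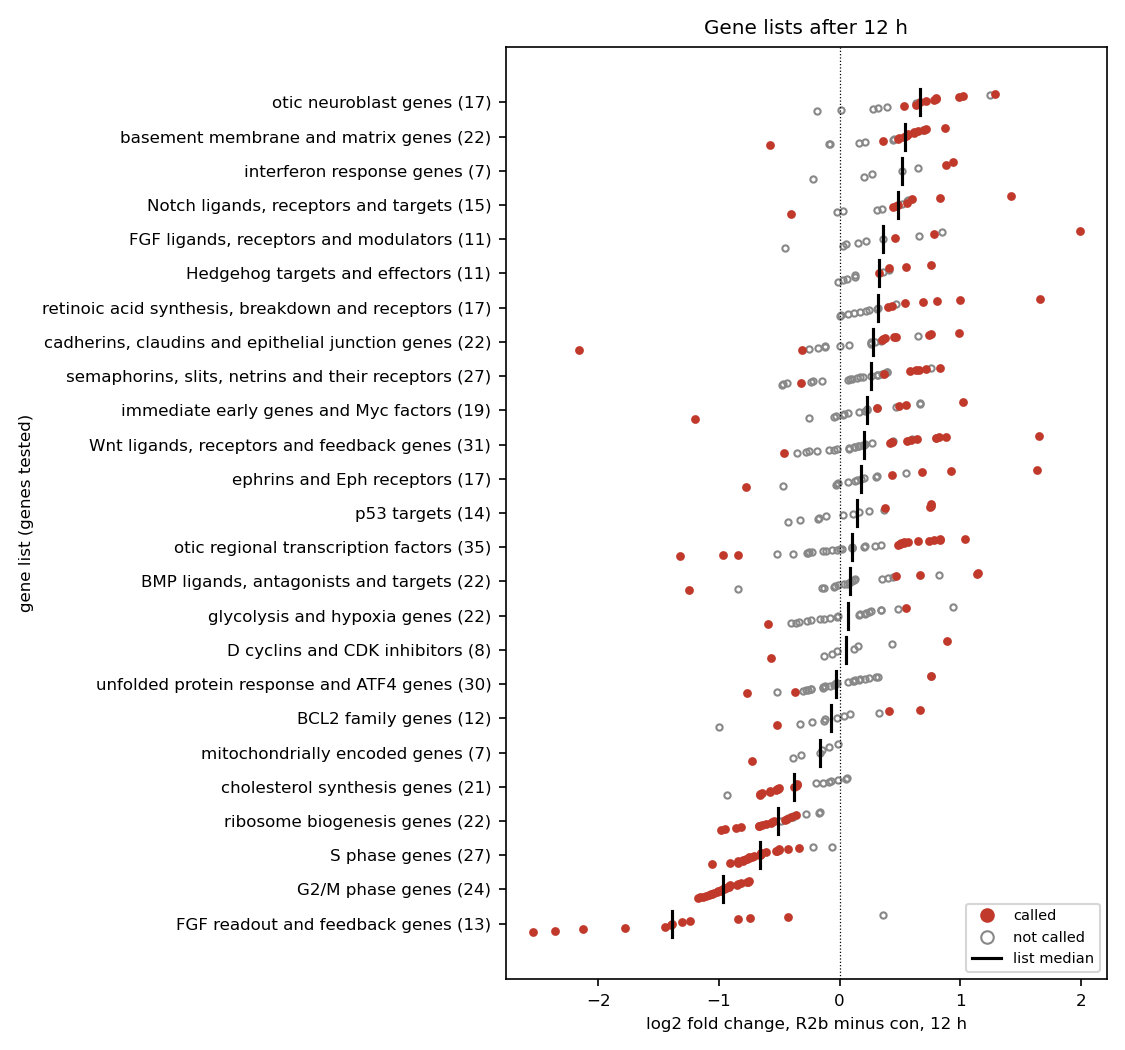
Fold change (log2, R2b minus con, horizontal axis) of every tested gene in 25 lists (vertical axis, with the number tested), filled where called, with the list median as a bar. The FGF readout, G2/M, S phase, ribosome biogenesis and cholesterol lists lie lowest, with medians of -1.39 to -0.38, and the neuroblast list highest at 0.67.

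Of 30 genes of the unfolded protein response and of ATF4, 1 was called higher and 2 lower (median -0.03), and 6 were lower with the R2b pool of litter 2 left out and 5 with all of that litter left out. The chaperone gene Hspa5 was at 974, 1086 and 1180 CPM in con and 991, 1317 and 763 CPM in R2b, overlapping groups (-0.08, SE 0.17, FDR 0.778), and Ddit3, a factor of prolonged stress, was at 0.30 (FDR 0.362). Psat1, a serine synthesis enzyme under ATF4, fell by 0.77 (SE 0.12, FDR 0.002). Atf4 itself was at -0.37 (FDR 0.0378) and was not called under 10 of 25 alternatives, the litter block among them (FDR 0.0933). Of 14 p53 targets 4 were called higher and 0 lower (median 0.14), against 10.20% and 9.78% of all genes. Sesn2, which responds to p53 and ATF4 and is in both lists, rose by 0.76 (SE 0.12, FDR 0.00219) and Trp53inp1 by 0.75 (SE 0.17, FDR 0.0114). Bbc3, the proapoptotic PUMA gene, was at 0.76 (FDR 0.0187) and was not called under 14 of 25 alternatives, the GC offset included (FDR 0.0622). Mdm2, Ccng1 and Bax were among the 10 targets not called. Without litter 1 none of the p53 targets was called, with FDRs of 0.0746 and 0.116 for Sesn2 and Trp53inp1, and the latter had 0.0519 without the con pool of litter 2.

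Of 12 BCL2 family genes 2 were called higher and 1 lower, near the shares of all genes (10.20% and 9.78%). The counts of the other lists in this paragraph are to be read against the same shares. Bmf, a proapoptotic member, was at 140, 142 and 143 CPM in con and 245, 220 and 210 CPM in R2b, groups that did not overlap (0.67, SE 0.09, FDR 0.00111). Bcl2, a survival gene, fell by 0.52 (SE 0.12, FDR 0.0123), and its FDR was 0.208 without litter 1, 0.0661 and 0.0596 without its R2b or con pool, and 0.0582 without litter 3. Bcl2l1 (0.41, FDR 0.0154) was not called under 11 of 25 alternatives. Of 22 genes of glycolysis and hypoxia 1 was called in each direction: the hexokinase gene Hk1 rose by 0.55 (SE 0.10, FDR 0.00407) and Hk2 fell by 0.59 (SE 0.14, FDR 0.0155). Their FDRs were 0.124 and 0.0739 without litter 1, and Hk2 had 0.0534 without litter 3, 0.0775 with the R2b pool of litter 1 left out and 0.0695 with the con pool of litter 2 left out. Of 7 interferon response genes the RNA sensors Ddx58 (0.94, SE 0.15, FDR 0.00237, and 0.0554 without litter 1) and Ifih1 (0.88, FDR 0.0476, and 0.108 with the litter block) were called higher, and Ifih1 was not called under 18 of 25 alternatives. Of 7 mitochondrially encoded genes mt-Nd6 was called lower (-0.73, SE 0.16, FDR 0.00999), and its FDR was 0.156 without litter 1 and 0.0531 without the R2b pool of that litter.

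The 24-hour exposure was compared next, since it ended at the same stage and shares no pool with the 12-hour exposure. It had 14979 genes tested, with 9.09% called higher and 6.50% lower, 2335 genes in all, and 6086 with the litter as a block. The difference between the effects was tested in 15533 genes as 12 hours minus 24 hours in edgeR. At an unadjusted p under 0.05, 7.97% of genes were lower and 3.23% higher at 12 hours, and only Cenpf passed at an FDR under 0.05. DESeq2 called 111 genes. The 12-hour and 24-hour pools carry different library series, so the exposure and the series cannot be told apart.

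The G2/M genes had lower fold changes at 12 hours than at 24, and 1 of the 24 differences passed adjustment. Their median fold change was -0.97 at 12 hours and -0.33 at 24 hours, where 16 of 24 were called lower, and all 24 with the litter block. The difference had an unadjusted p under 0.05 for 23 of 24 genes, all toward a deeper fall at 12 hours, with a median of -0.67. Cenpf, a kinetochore protein, changed by -1.16 (SE 0.10) at 12 hours and by -0.34 at 24 hours, a difference of -0.83 with a p of 3.13e-06 and an FDR of 0.0487. Cenpe followed it, with a difference of -0.86 (p 7.38e-06) that was not called. DESeq2 called 16 of the 24 differences and the litter block 10, all of them lower, and none was called with all libraries in 1 fit. With the GC offset none of the 24 was called, while all 24 had an unadjusted p under 0.05 and the median was -0.55. The number called was 0 without any 1 con pool of the 12-hour exposure, without litter 1 or without its R2b pool, 3 without litter 3 or its R2b pool, 10 without litter 2 and 14 without the R2b pool of litter 2. For the S phase genes the medians were -0.66 and -0.38, all 27 were called lower at 24 hours with the litter block, and 10 of 27 differences had an unadjusted p under 0.05, all lower.

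For neuroblast genes no difference between the exposures passed adjustment. Their median was 0.67 at 12 hours and -0.37 at 24 hours, where 0 of 17 were called, or 1 higher and 3 lower with the litter block. For 9 of 17 the difference had an unadjusted p under 0.05, all higher at 12 hours, and none passed at an FDR under 0.05 (lowest 0.286). DESeq2 called 1 of 15. Eya2 was at 0.99 and 0.01 (difference 0.97, p 0.00297), Tubb3 at 1.02 and -0.16 (1.16, p 0.00402) and Insm1 at 0.80 and -0.37 (1.15, p 0.0123). With the GC offset the count was also 9 of 17, with a median of 0.97. Counts were 5 without litter 1 or without litter 2 of the 12-hour exposure, and 2 with all libraries in 1 fit.

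The FGF readout list had medians of -1.39 and -1.25, and 1 of 13 differences had an unadjusted p under 0.05. Bmper was at 1.14 and 1.83 (-0.70, p 0.00536), Lhx1 at 1.93 and 2.66 (-0.75, p 0.0165) and Col11a1 at 0.56 and 1.16 (-0.62, p 0.000146). None of these differences passed at an FDR under 0.05. Six2 was at -1.32 after 12 hours and -2.10 after 24, and Otx2 at -0.97 and -2.21. In edgeR without a litter block 0 of the 35 regional factors had a called difference (lowest FDR 0.34), and with the block 1 had.

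**Figure D5:**
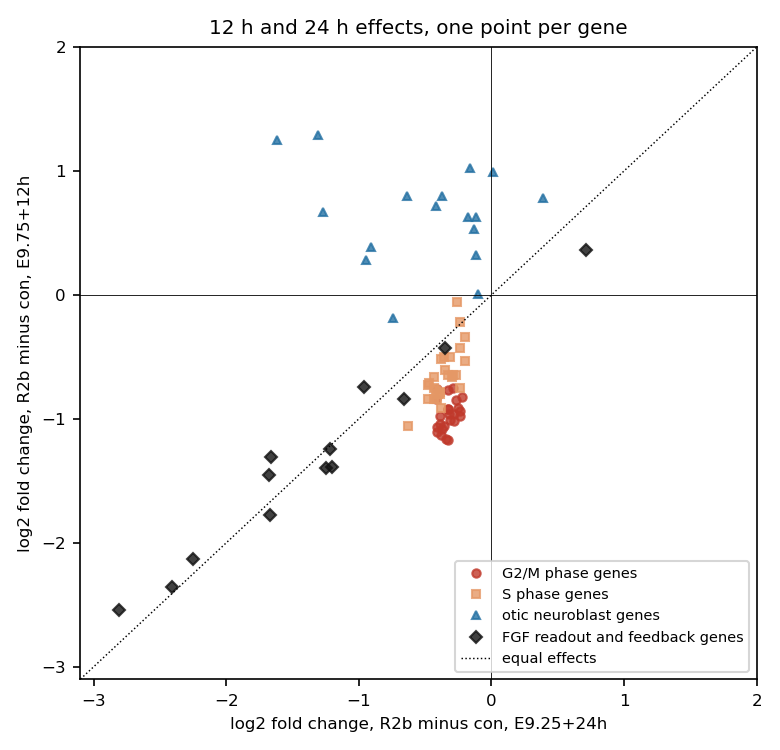
Fold change (log2, R2b minus con) after 24 hours (horizontal axis) and after 12 hours (vertical axis) for the genes of 4 lists, 1 point per gene, with a dotted line of equal effects. FGF readout genes lie on both sides of the line, all 24 G2/M genes lie below it, and all 17 neuroblast genes lie above it.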

How the data were processed

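Libraries were made from otocyst epithelium with a stranded TruSeq kit and oligo(dT) selection, per the labels' protocols. The deposited values are raw counts per Ensembl gene, made by the authors, and no gene has a total under 100 over the columns used. Novoalign 2.08.03 and the build mm10 are named in the submitters' processing notes, and the counting tool, its strand setting and the annotation are not given in the sources used here. The table holds 15736 genes and 24 columns, of which 2 matched no sample title and were not used, and 2 samples of this exposure had no matched column. Symbols, coordinates and transcript GC content came from GENCODE M21 (GRCm38) for 15522 genes.

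Genes were kept with filterByExpr, scaled by TMM and tested with edgeR 4.0.16 (glmQLFit and glmQLFTest, R 4.3.3) over the 6 libraries of this exposure, with Benjamini-Hochberg adjustment over all genes tested and a threshold of 0.05. The difference between exposures was tested in the same way as an interaction over both exposures. SEs were derived from the same fit. DESeq2 1.42.0, other scalings and filters, a litter block, all libraries in 1 fit and the omission of each litter or library were alternatives. A GC offset, its combinations and the CHR and E2F motifs were added after the data were seen. The gene lists were chosen with earlier results of these data known, and so were the libraries compared. Genes named are the 10 largest rises and falls under the rule given in the text, up to 3 genes called per list by FDR (5 for the regional, neuroblast, Wnt, BMP, Notch, unfolded protein response and cell cycle lists), and genes called in the difference. Results of some genes are not reported here. Other names are given as chosen after their values were seen or as examples of members that were not called.

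The pairing by litter comes from the labels, which pool both genotypes per pregnant female and give both pools 1 date in their titles. Deviations of the same litter's pools from their group means correlated at -0.21, -0.31 and -0.28 over 11727 genes, and other pairs at -0.07 to 0.28. No pair of libraries was alike within sampling noise. P-values measure the spread between pools of different females, and the number of embryos per pool is not given in the sources used here.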

Additional observations from a re-analysis of the deposited data

Results flagged for a closer look

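The effect on Cenpf, which encodes a kinetochore protein, differed between the exposures, by a test of the difference itself. The fold change was -1.16 (SE 0.10) after 12 hours and -0.34 (FDR 0.00843) after 24 hours, a difference of -0.83 in edgeR (p 3.13e-06, FDR 0.0487). In the 12-hour exposure the con pools were at 340, 386 and 335 CPM and the R2b pools at 150, 149 and 177 CPM, so all 3 R2b pools were lower. Among 15533 genes it was the only one called in this test. No gene was called with median-of-ratios size factors, with all libraries in 1 fit or with the GC offset. None was called either without any 1 litter of the 24-hour exposure or any 1 con pool of either exposure. The same held without litter 1 of the 12-hour exposure or its R2b pool, and other omissions gave 0 to 913 calls. The exposures were carried by different library series, and the part of the series in the difference was not tested.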

How the results depend on the processing

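The count of genes called at 12 hours, 2973, was 1580 where a change of 1.5-fold or more was also required and 4560 with all libraries in 1 fit. Leaving out single libraries or litters gave 434 to 4583 calls, 691 with the GC offset and without litter 1, and 1595 and 267 with the litter block and without litter 3 or litter 1. With the litter as a replicate block, the pairing by female, 1775 genes were called, 862 higher and 913 lower, and 1760 of them were among the 2973 in the same direction. With the block and the GC offset together there were 2221. The count was within 1.5 times of the reported one with median-of-ratios size factors (2986), without a filter (2936), with a mean CPM of at least 1 (3003), with robust dispersion (3100), in DESeq2 (3525) and with the GC offset (3382). At 24 hours, 2335 calls became 6086 with the block, 6572 with the block and the GC offset, and 322 to 2289 without single libraries or litters. The difference between exposures, with 1 call, had 0 with median-of-ratios size factors, all libraries in 1 fit or the GC offset, 2 with a mean CPM of at least 1 or robust dispersion, 57 with the block, 37 with the block and the GC offset, and 111 in DESeq2. Without single libraries or litters it had 0 to 913, of which 913 without the R2b pool of litter 2 at 12 hours and 858 without that litter, and 16 without litter 3 at 12 hours. Of 2450 values of 98 named genes under alternatives, 2150 kept the call and 300 lost it, with 0 changes of sign. Of the losses 44 came without litter 1, 37 without it and with the GC offset, and 56 without it and with the litter block. The share of windows of genes called lower with the ETS core, 23.8%, was 3.68% for the longer motif ACCGGAAGT and 19.2% in the 250 bases before the start alone. The cause of these shifts was not tested.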
